A study of Homo sapiens with 24 samples.

Results

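The comparison described here sets untransfected HepaRG cells treated with Wnt3a against untransfected HepaRG cells left untreated, across all transcripts measured. Its samples were chosen by their titles, HepaRG_untransfected_WNT3A-treated and HepaRG_untransfected_untreated, which gives 3 arrays per group and 6 of the 24 arrays of the series. HepaRG is a human liver cell line, labelled as a hepatocellular carcinoma line, that can give rise to hepatocyte-like and biliary-like cells in culture. The other arrays hold cells given control siRNA, β-catenin siRNA or FZD8_CRD, a soluble Wnt-binding domain, each with and without Wnt3a. The treated group received mouse recombinant Wnt3a at 200 ng/ml for 72 h in serum-free medium with 0.1% BSA, the untreated group received none, and neither group was transfected. All replicates come from a single line, and the protein added is the mouse one. RNA was labelled with Cy3 and hybridised to one-colour arrays of 62976 spots, 8 arrays to a slide, so that slide 1, slide 2 and slide 3 each hold 1 untreated and 1 Wnt3a-treated array of the same replicate number. On the 6 arrays, between 59.9% and 63.5% of the spots were well above background. Signals are given as log2 intensity relative to the 75th percentile of the array, so that a value of 0 is a spot as bright as that percentile, and the lowest value possible is the floor of -6.13.

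Wnt3a is a secreted ligand that binds Frizzled receptors together with LRP5 or LRP6 and thereby stops the destruction of β-catenin, which then enters the nucleus and acts with the DNA-binding factors of the TCF/LEF family. Many of the genes it switches on encode inhibitors of the pathway itself, so that feedback genes serve as a readout of signalling. In the liver, Wnt/β-catenin signalling patterns the metabolic zones of the lobule around the central vein, contributes to regeneration, and is often mutated in hepatocellular carcinoma.

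With Wnt3a, the 3 tested genes of the IGFL family were higher, as were 5 of 9 fibrillar collagens, 10 of 23 matrix glycoproteins, 11 of 21 matrix proteases and inhibitors and 15 of 29 contractile genes, but 2 of 17 other collagens and, in limma, none of 11 laminins (2 at an unadjusted p under 0.05). Several feedback and transcription factor genes of the Wnt pathway rose as well, while 8 of 12 genes in a list of mucosal secretory genes and 7 of 19 genes of lipid metabolism were lower. Most of these rises were not called when the arrays were scaled to spike-in RNA. All these lists were drawn up with earlier results of these data known, so their counts describe the listed genes and not whole gene classes. The largest rise was in IGFL2 (17.7-fold), followed by LRRC15, PI15 and the non-coding LINC03033, and the largest falls were in CYP4B1, PNLIPRP3 and PSCA, among genes with a symbol that changed the same way on every slide. The rank of PNLIPRP3 depends on the processing, since its signal reached the floor on treated array 2. With the normexp correction described below its log2 fold change was -0.57, against -1.77 for CYP4B1 and -1.78 for PSCA. In a limma model over all 24 arrays, 1381 of 24648 genes (5.6%) differed at a Benjamini-Hochberg adjusted p under 0.05, and such genes are called below. Of the called genes, 738 (2.99% of those tested) rose and 643 (2.61%) fell. Most changes were small, since 1167 of the called genes (84.5%) changed by less than 2-fold, 133 rose by more than 1 on the log2 scale and 81 fell by more than that. A gene symbol was available for 1189 of the called genes, and 1306 of the 1381 were well above background on all 6 arrays. At the fold and p thresholds used in the study, 1090 genes (4.42%) passed, and 704 of these were also called here.

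**Figure D1:**
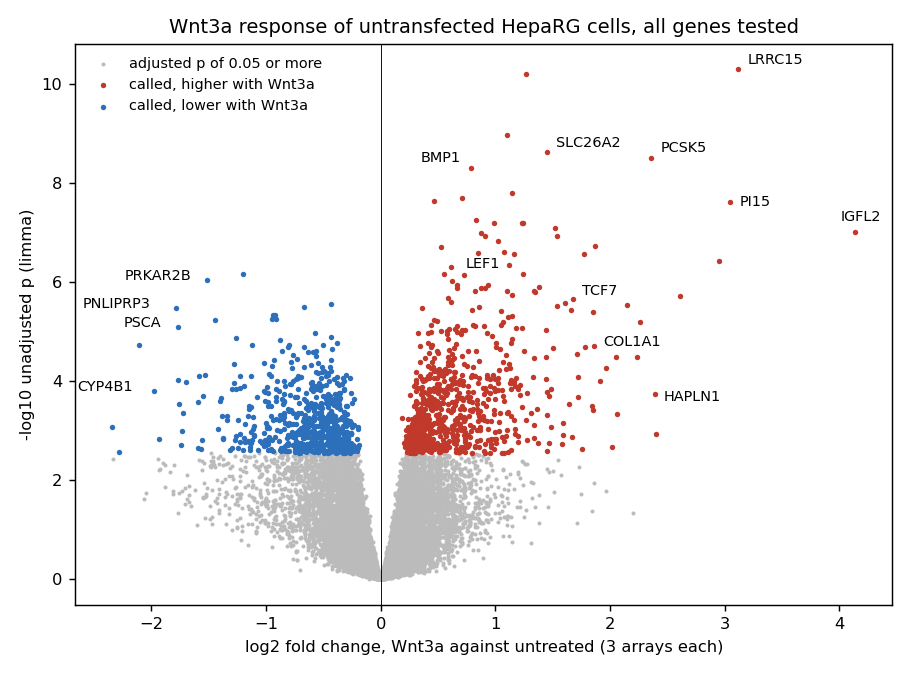
Log2 fold change with Wnt3a (horizontal axis) against the -log10 unadjusted p of the limma test (vertical axis) for all 24648 genes, 3 arrays per group. Red points are the 738 genes called higher, blue points the 643 called lower, and grey points are genes not called. The largest rise labelled is IGFL2 at 4.14, and the labelled falls do not go below -1.98.

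How many genes were called depended on the arrays in the fit, on the filter and on single arrays. With the 6 arrays fitted alone, where few degrees of freedom remain, the count was 2, and without a filter on dim probes it was 848. The model over 24 arrays pools the variance of all 8 conditions. Their median standard deviations ran from 0.12 to 0.212, with 0.183 untreated and 0.212 with Wnt3a. The siRNA conditions stood at 0.12 to 0.15, FZD8_CRD with Wnt3a at 0.122 and FZD8_CRD alone at 0.197. The pooled spread may therefore understate that of the arrays compared, which would make standard errors and adjusted p too small. Without Wnt3a array 2 the count was 179, without untreated array 1 it was 397 and without untreated array 2 it was 408, whereas it was 2803 without untreated array 3 and 3189 without Wnt3a array 3. A set of 162 genes kept the call whichever of the 6 arrays was left out, 130 of them higher and 32 lower with Wnt3a. With all arrays of replicate 1, 2 or 3 left out, 27, 6 and 6344 genes were called. All 1381 called genes kept their direction in each of these 3 fits, and 6 genes kept the call in all of them, LRRC15, PCSK5, SLC26A2, PRAG1 and OLFML3 among them. PRAG1 and OLFML3 are named because they belong to this set, which was seen in the data.

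The 3 slides differ in what they show, and slide 3 stands apart from the others. Across all genes, the Wnt3a minus untreated differences of slides 1 and 2 correlated at 0.699, those of slides 1 and 3 at -0.127 and those of slides 2 and 3 at -0.0836, where genes are not independent replicates. Genes called higher had a median difference of 0.54 on slide 1, 0.75 on slide 2 and 0.33 on slide 3. Genes called lower had -0.57, -0.89 and -0.16. Of the called genes, 1255 (90.9%) differed in the same direction on every slide, against 34.7% of all genes, and these comprise 714 of those called higher and 541 of those called lower. The called genes were chosen on these same slides, a choice that favours a shared direction. With the slide as a block in the model, 2823 genes were called, 1502 higher and 1321 lower, and all 1381 were among them. With the same block on the 6 arrays alone limma called 0 genes, with 2504 at an unadjusted p under 0.05. The 3 untreated and the 3 Wnt3a-treated values did not overlap for 3766 genes (15.3%), among them 1214 of the called genes. Every condition kept 1 position on the slides, so that position and treatment cannot be told apart.

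Spike-in RNA, added in a fixed amount before labelling, was higher relative to the 75th percentile with Wnt3a by 0.65 on slide 1 and 0.57 on slide 2, but not on slide 3, at -0.05. Labelling began from the same mass of total RNA for every array, so this ratio does not measure RNA per cell. Scaling the arrays to the 7 spike-in probes moved the median log2 fold change of all genes from 0.01 to -0.37. The calls then numbered 281, with 24 higher and 257 lower, in place of 738 and 643, and 24 of the rises and 163 of the falls were called under both scalings. Called under both were 3 IGFL genes, 1 fibrillar collagen, 1 matrix glycoprotein, 2 matrix proteases or inhibitors, 6 mucosal secretory genes and 4 genes of lipid metabolism. At the study's thresholds the split was 78 higher and 1631 lower in place of 448 and 642. Changes below are therefore relative to the bulk of transcripts on each array, and where a group of genes turns direction under the spike-in scaling both medians are given. The changes of dim genes also depend on the signal and background used. An alternative took the median signals in place of the background-subtracted ones and corrected them by normexp, so that signal and background were not tested apart. With normexp and an offset of 50 added to the signals, the log2 fold change was over 1.5 times smaller for 25 of the 125 called genes chosen for naming. Among those described below it was 0.57 for CTHRC1, 0.50 for COL1A2, 0.38 for COL6A2, 1.01 for MMP13, 1.40 for HAPLN1, 1.70 for PI15, 0.67 for RSPO3, 0.40 for JAG2, 0.64 for SLC7A5, -0.51 for ITGA8, -0.57 for PNLIPRP3, -0.61 for PRKAR2B, -0.44 for ABCD2, -0.77 for FA2H, -0.89 for SLC26A9 and -0.82 for MRC1, all still called, and 0.35 for LOXL3 and 0.25 for CDON, which were not (adjusted p of 0.133 and 0.072).

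The labelled cell type was checked against marker genes. All 7 hepatocyte markers were measured, and ALB, the gene of serum albumin, read 9.76, 9.45 and 9.01 on the untreated arrays and 9.18, 7.79 and 9.11 on the Wnt3a arrays, far above the 75th percentile on each. KRT19, a keratin of biliary cells, read between 7.72 and 8.09 on the 6 arrays. The mean over the hepatocyte markers was 5.71, 4.79 and 3.97 untreated and 4.31, 3.15 and 4.34 with Wnt3a, and over the biliary markers 0.39, 0.16 and 0.09 against 0.09, -0.06 and 0.25. Markers of endothelial cells averaged between -3.29 and -3.10 and those of lymphocytes between -3.51 and -2.97, with 0 of 5 called by limma in either list, a median change of 0.05 for the endothelial ones (-0.34 under the spike-in scaling), and 2 endothelial and 0 lymphocyte markers at an unadjusted p under 0.05. These arrays therefore carry hepatocyte transcripts and KRT19 at high levels, while the biliary markers as a list average near the 75th percentile. The hepatocyte markers vary from one untreated array to the next.

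The IGFL genes encode small secreted proteins related in sequence to insulin-like growth factors, and 3 of the 4 family members were well enough above background to be tested. IGFL2 read -1.42, -0.67 and -0.56 on the untreated arrays and 3.06, 3.73 and 2.99 with Wnt3a, a log2 fold change of 4.14 (standard error 0.51, limma adjusted p = 0.000149). IGFL3 read 0.51, 1.16 and 1.19 untreated and 2.77, 4.09 and 2.80 with Wnt3a, a log2 fold change of 2.26 (standard error 0.37, limma adjusted p = 0.00216). For both genes every treated array was well above every untreated one, with array 2 the highest. IGFL1 read -3.18, -2.85 and -2.95 untreated and -0.74, 0.00 and -1.03 with Wnt3a, a log2 fold change of 2.40 (adjusted p = 0.0325). IGFL1 also did not overlap between the groups, but its call was lost without untreated array 1 (adjusted p = 0.112), untreated array 2 (0.0893), Wnt3a array 1 (0.0553) or Wnt3a array 2 (0.212). The rises of the 3 genes were called under the spike-in scaling as well. Of the insulin-like growth factor system proper, 1 of 13 tested members was called, IGFBP4, a binding protein that rose by 0.64 (adjusted p = 0.0256, lost without untreated array 1, untreated array 2 or Wnt3a array 2, at 0.113, 0.0502 and 0.223). The median over the system was 0.09, or -0.31 under the spike-in scaling.

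**Figure D2:**
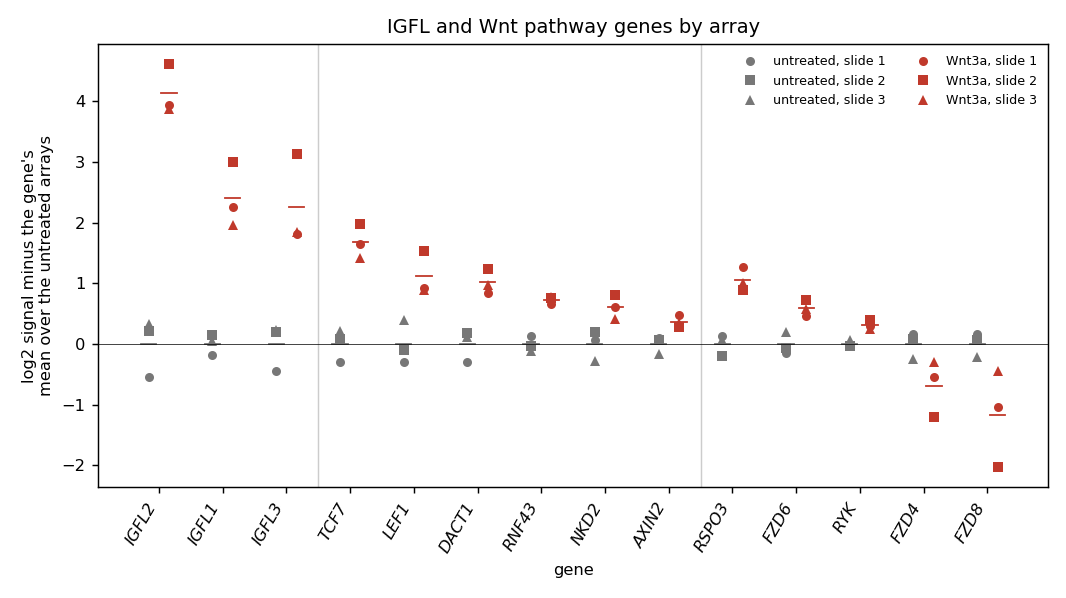
Log2 signal of each array minus the gene's mean over the 3 untreated arrays, for IGFL genes (left), TCF/LEF factors and feedback genes (middle) and receptors and R-spondin (right). Grey symbols are untreated and red symbols Wnt3a-treated arrays, the symbol shape gives the slide and the short lines are group means. IGFL2 stands highest at a mean difference of 4.14, and FZD8 lowest at -1.16. Under the spike-in scaling AXIN2 and RYK turn to -0.03 and -0.08.

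Of the nuclear partners of β-catenin, 2 of the 4 tested TCF/LEF genes rose and none fell. TCF7, also known as TCF1, read -2.88, -2.50 and -2.37 on the untreated arrays and -0.93, -0.61 and -1.16 with Wnt3a, a log2 fold change of 1.68 (standard error 0.25, limma adjusted p = 0.00109). LEF1 read -0.28, -0.07 and 0.41 untreated and 0.95, 1.56 and 0.91 with Wnt3a, a log2 fold change of 1.12 (standard error 0.15, limma adjusted p = 0.000392). The treated arrays were higher than all untreated arrays for both genes, and both calls were kept without any 1 of the 6 arrays. TCF7L1 at -0.17 and TCF7L2 at 0.05 were not called. A second probe of TCF7 gave a log2 fold change of 1.79. Among the called genes chosen for naming, 32 have further probes, and for 18 of these at least 1 further probe was not called.

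Wnt signalling induces secreted, membrane and cytoplasmic inhibitors of itself, of which 9 were tested, 4 rose and none fell. RNF43, a membrane ubiquitin ligase that removes Frizzled receptors from the cell surface, read 1.09, 0.92 and 0.84 untreated and 1.61, 1.71 and 1.73 with Wnt3a, a log2 fold change of 0.73 (standard error 0.10, limma adjusted p = 0.00054). DACT1, which binds Dishevelled, rose by 1.02 and NKD2, also a Dishevelled-binding protein, by 0.61. AXIN2, the scaffold of the destruction complex that is widely used as a readout of the pathway, read 0.48, 0.46 and 0.22 untreated and 0.87, 0.66 and 0.74 with Wnt3a, a log2 fold change of 0.37 (adjusted p = 0.0453). All 4 genes were higher on each treated array than on each untreated one. RNF43 kept the call without any 1 array, whereas DACT1 lost it without untreated array 1 (adjusted p = 0.0543) or Wnt3a array 2 (0.0779), NKD2 without Wnt3a array 2 (0.0832), and AXIN2 without any array but Wnt3a array 3, with an adjusted p of at most 0.127. A second probe of AXIN2 was at 0.33 (adjusted p = 0.272). ZNRF3 at 0.21, DKK1 at -0.06, APCDD1 at -0.53 and SP5 at 0.03 were not called, nor was NKD1, whose signal passed the background criterion on 1 treated array and no untreated one. With NKD1 at its lower bound the median of the 9 was 0.24. Under the spike-in scaling the median was -0.03, as was AXIN2 itself, and limma called 0 of the 9, with 2 at an unadjusted p under 0.05.

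Receptors and R-spondins changed in both directions, with 3 of 19 tested members higher and 2 lower. FZD6, a Frizzled receptor, read 0.05, 0.14 and 0.40 untreated and 0.66, 0.93 and 0.77 with Wnt3a, a log2 fold change of 0.59 (standard error 0.09, limma adjusted p = 0.00107), and kept the call without any 1 array. FZD8 read -0.89, -0.99 and -1.27 untreated and -2.09, -3.08 and -1.49 with Wnt3a, a log2 fold change of -1.16 (standard error 0.28, adjusted p = 0.0208). FZD8 was thus lower on every treated array, most on slide 2 and least on slide 3. FZD4 fell by 0.68, the pseudokinase receptor RYK rose by 0.31, and RSPO3, a secreted protein that potentiates Wnt signals by binding LGR receptors, rose by 1.06. Without Wnt3a array 2, only FZD6 of the 5 stayed below the threshold, with 0.163 for FZD8, 0.239 for FZD4, 0.109 for RYK and 0.111 for RSPO3. The same 4 calls were lost without untreated array 1 (adjusted p of 0.0866, 0.126, 0.0655 and 0.0809) or untreated array 2 (0.0796, 0.109, 0.0636 and 0.133), and that of RSPO3 without Wnt3a array 1 (0.0896). LRP5 at 0.18 and LRP6 at -0.09 were not called, and LGR5 was not well above background and was not tested. The median of the receptor list was 0.19, and -0.20 under the spike-in scaling, where RYK was at -0.08. None of 13 genes of the β-catenin destruction complex and its regulators was called by limma (4 had an unadjusted p under 0.05), with a median of 0.00, and CTNNB1 itself was at 0.02 (adjusted p = 0.977).

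Promoters are shown for 6 of the genes described so far, the 3 IGFL genes as a family that rose together and LEF1, TCF7 and DACT1 as pathway genes that rose. They are RefSeq promoters of GRCh38.p14, each of 300 bases that span the start of the gene, and were searched on both strands for CTTTGAT and CTTTGAA (reverse complements ATCAAAG and TTCAAAG), letters that TCF/LEF factors are known to bind. A match is printed in capitals. The windows are chr19:46229492-46229791 (+) for IGFL1, chr19:46147988-46148287 (+) for IGFL2, chr19:46124639-46124938 (-) for IGFL3, chr4:108166252-108166551 (-) for LEF1, chr5:134115363-134115662 (+) for TCF7 and chr14:58633811-58634110 (+) for DACT1.
IGFL1: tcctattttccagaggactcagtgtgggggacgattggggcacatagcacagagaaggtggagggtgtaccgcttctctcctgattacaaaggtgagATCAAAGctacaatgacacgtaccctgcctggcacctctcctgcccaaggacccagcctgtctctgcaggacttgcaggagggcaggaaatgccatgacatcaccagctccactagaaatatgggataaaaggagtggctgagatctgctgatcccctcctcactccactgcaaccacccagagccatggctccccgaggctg
IGFL2: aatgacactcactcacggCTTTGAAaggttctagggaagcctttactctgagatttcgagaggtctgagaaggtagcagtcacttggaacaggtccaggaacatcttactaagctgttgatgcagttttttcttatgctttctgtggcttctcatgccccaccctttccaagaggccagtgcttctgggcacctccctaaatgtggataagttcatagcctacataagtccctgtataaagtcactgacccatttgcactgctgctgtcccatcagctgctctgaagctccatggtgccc
IGFL3: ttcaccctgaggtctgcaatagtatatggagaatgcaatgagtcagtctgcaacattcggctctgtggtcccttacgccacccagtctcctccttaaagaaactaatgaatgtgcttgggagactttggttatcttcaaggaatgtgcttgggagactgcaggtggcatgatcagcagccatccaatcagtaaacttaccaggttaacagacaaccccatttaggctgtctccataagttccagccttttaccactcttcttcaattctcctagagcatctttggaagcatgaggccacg
LEF1: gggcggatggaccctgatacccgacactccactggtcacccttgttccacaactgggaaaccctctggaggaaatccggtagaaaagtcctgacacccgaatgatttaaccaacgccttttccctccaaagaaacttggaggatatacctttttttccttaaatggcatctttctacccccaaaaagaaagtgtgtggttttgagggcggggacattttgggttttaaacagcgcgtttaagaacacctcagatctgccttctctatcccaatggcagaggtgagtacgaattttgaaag
TCF7: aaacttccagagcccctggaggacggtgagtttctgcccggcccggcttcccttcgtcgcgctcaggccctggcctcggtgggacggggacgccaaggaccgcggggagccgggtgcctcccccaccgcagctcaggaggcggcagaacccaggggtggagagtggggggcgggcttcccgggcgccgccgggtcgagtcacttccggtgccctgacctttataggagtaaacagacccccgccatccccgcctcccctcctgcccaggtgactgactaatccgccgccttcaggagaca
DACT1: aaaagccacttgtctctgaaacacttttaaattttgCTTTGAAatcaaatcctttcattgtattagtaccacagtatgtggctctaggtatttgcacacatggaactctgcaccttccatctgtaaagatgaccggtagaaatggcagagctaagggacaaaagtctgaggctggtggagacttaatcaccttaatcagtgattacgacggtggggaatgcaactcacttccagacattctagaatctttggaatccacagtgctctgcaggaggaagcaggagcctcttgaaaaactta
IGFL1 and DACT1 hold 1 match each, as does IGFL2, while IGFL3, LEF1 and TCF7 hold none of these letters in the window. Either motif was found in 1906 of all 27305 promoters (6.98%) and in 577 of the 12390 tested genes with a promoter in the table (4.66%). Of the genes called higher, 506 of 628 with a symbol had a promoter and 19 of these held a match (3.75%). Of the genes called lower, 446 of 561 had one and 28 held a match (6.28%). A match describes the letters only. The promoters of RNF43 and NKD2, pathway genes that also rose, were searched too, hold no match and are not printed. AXIN2 has no entry.

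Genes of the extracellular matrix rose in several of the lists examined. Of the fibrillar collagens 5 of 9 tested rose and none fell, with a median of 0.60. COL5A1, which nucleates collagen fibrils, read 4.97, 5.03 and 4.87 untreated and 5.96, 6.63 and 5.72 with Wnt3a, a log2 fold change of 1.15 (standard error 0.20, limma adjusted p = 0.0034). COL1A1, COL1A2, COL3A1 and COL5A2 rose by 1.86, 1.14, 0.93 and 0.60. COL1A1 and COL5A1 kept their calls without any 1 array, whereas 3 of the 5 genes kept theirs without untreated array 2 and 3 without Wnt3a array 2. Of the other collagens 2 of 17 were called, COL4A2 at 0.63 and COL6A2 at 0.89, and both calls were lost without untreated array 1 (adjusted p of 0.10 and 0.0513) or Wnt3a array 2 (0.13 and 0.123). The median of this second list was 0.14, or 0.19 without genes that were not well above background in either group, and -0.15 under the spike-in scaling.

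Of 16 tested enzymes that process collagen 6 rose and none fell, with a median of 0.45. BMP1, the proteinase that trims procollagen to its fibril-forming length, read 1.18, 1.14 and 1.08 untreated and 1.87, 2.11 and 1.78 with Wnt3a, a log2 fold change of 0.79 (standard error 0.08, limma adjusted p = 2.01e-05). The untreated arrays of BMP1 are nearly equal and all lie below the treated ones. The other 5 were P4HA2 and PLOD2, which hydroxylate proline and lysine in collagen chains, the cross-linking enzyme LOXL3, the BMP1 enhancer PCOLCE2 and the collagen chaperone SERPINH1, which rose by between 0.39 and 0.90. Only BMP1 of the 6 kept the call without Wnt3a array 2, and without untreated array 1, untreated array 2, untreated array 3 or Wnt3a array 1 the number called was 3, 4, 4 and 4. With spike-in scaling PLOD2 was at 0.00, the median was 0.06 and limma called 0 of the 16, with 0 at an unadjusted p under 0.05.

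**Figure D3:**
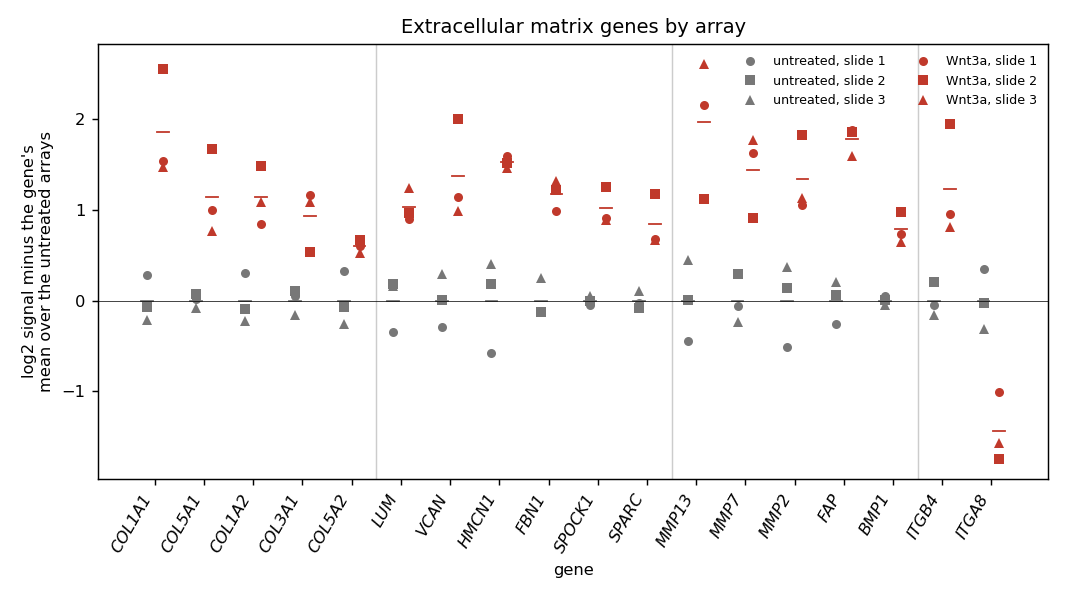
Log2 signal of each array minus the gene's mean over the 3 untreated arrays, for fibrillar collagens, other matrix proteins, proteases and integrins, separated by vertical lines. Grey symbols are untreated and red symbols Wnt3a-treated arrays, the symbol shape gives the slide and the short lines are group means. The treated mean is higher for every gene drawn but ITGA8, at -1.44.

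Among matrix glycoproteins 10 of 23 tested rose and none fell, with a median of 0.74, or 0.78 with genes not well above background in 1 group at their bound and those in neither left out. HMCN1, which encodes the large matrix protein hemicentin, read -0.44, 0.32 and 0.54 untreated and 1.74, 1.66 and 1.60 with Wnt3a, a log2 fold change of 1.52 (standard error 0.18, limma adjusted p = 0.000129). CTHRC1, a secreted collagen triple helix repeat protein, read -5.55, -5.81 and -5.90 untreated and -4.12, -3.52 and -4.04 with Wnt3a, a log2 fold change of 1.85 (standard error 0.29, limma adjusted p = 0.00155) that was 0.57 with normexp. Neither gene overlapped between the groups, and the signal of CTHRC1 lay near the floor in untreated cells. FBN1, the fibrillin of elastic microfibrils, rose by 1.18, the proteoglycan SPOCK1 by 1.02 and SPARC, a collagen-binding matricellular protein, by 0.85. CCDC80 rose by 1.09, but without untreated array 1, untreated array 2 or Wnt3a array 2 its adjusted p was 0.146, 0.102 and 0.281. Of the 10 calls, 6 were kept without Wnt3a array 2 and 6 without untreated array 2.

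Proteoglycans and the hyaluronan matrix held further large changes. LUM, the small leucine-rich proteoglycan lumican, read 2.24, 2.77 and 2.74 untreated and 3.48, 3.55 and 3.83 with Wnt3a, a log2 fold change of 1.04 (standard error 0.19, limma adjusted p = 0.00451). DCN, decorin, rose by 0.71 and EPYC, epiphycan, by 2.02, so that 3 of 5 tested members of this family rose with a median of 0.71. VCAN, the hyaluronan-binding proteoglycan versican, read 0.43, 0.73 and 1.02 untreated and 1.87, 2.73 and 1.72 with Wnt3a, a log2 fold change of 1.38 (standard error 0.20, limma adjusted p = 0.000801). HAPLN1, which links such proteoglycans to hyaluronan, read -5.07, -4.41 and -4.09 untreated and -2.59, -1.65 and -2.15 with Wnt3a, a log2 fold change of 2.39 (standard error 0.52, adjusted p = 0.012). For LUM, VCAN and HAPLN1 each treated array exceeded each untreated one. The hyaluronan receptor CD44 rose by 0.27, so that 3 of 9 genes of the hyaluronan list rose, with a median of 0.27, and -0.13 under the spike-in scaling for both the list and CD44. On slide 1 CD44 was at 0.01, and its second probe was at 0.08 over the slides (limma adjusted p = 0.831). LUM and VCAN kept the call without any 1 array. HAPLN1 lost it without untreated array 1 (adjusted p = 0.0683) or Wnt3a array 2 (0.0974), DCN without untreated array 1 (0.153), Wnt3a array 1 (0.0689) or Wnt3a array 2 (0.0868), CD44 without untreated array 2 (0.0993), untreated array 3 (0.0896) or Wnt3a array 2 (0.215), and EPYC without any array but untreated array 3, with an adjusted p of at most 0.165.

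Of 21 tested matrix proteases and their inhibitors 11 rose and none fell, with a median of 0.76. MMP13, a collagenase, read -5.11, -4.66 and -4.22 untreated and -2.50, -3.54 and -2.05 with Wnt3a, a log2 fold change of 1.97 (standard error 0.38, limma adjusted p = 0.00759). MMP7, matrilysin, read 5.98, 6.33 and 5.80 untreated and 7.67, 6.95 and 7.81 with Wnt3a, a log2 fold change of 1.44 (standard error 0.27, limma adjusted p = 0.00561). Both genes were higher on all treated arrays and least so on slide 2, where the genes called higher had their largest median difference. MMP2, a gelatinase, rose by 1.34 and FAP, a serine protease of activated fibroblasts, by 1.78. MMP1, another collagenase, was not well above background on any untreated array and was at least 1.97-fold higher with Wnt3a, and PLAT, tissue plasminogen activator, at least 1.84-fold on the same terms. The secreted protease PRSS23 rose by 0.82. TIMP1, TIMP2 and TIMP3, which inhibit metalloproteinases, were not called, at 0.08, 0.21 and -0.36. Of the 11 calls, 6 were kept without Wnt3a array 2 and 7 without untreated array 1. Outside this list, PCSK5, a proprotein convertase that activates secreted precursors, read 2.44, 2.98 and 2.95 untreated and 4.99, 5.53 and 4.92 with Wnt3a, a log2 fold change of 2.36 (standard error 0.23, limma adjusted p = 1.5e-05). Of its other probes, 1 was at 2.52 and 1 at 0.00 (adjusted p = 1).

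Integrins, which hold cells to the matrix, changed in both directions, with 4 of 17 higher and 2 lower. ITGB4, the β subunit of hemidesmosomes, read 0.98, 1.23 and 0.86 untreated and 1.98, 2.97 and 1.83 with Wnt3a, a log2 fold change of 1.23 (standard error 0.21, limma adjusted p = 0.00257). ITGA8 read -3.22, -3.59 and -3.88 untreated and -4.57, -5.31 and -5.14 with Wnt3a, a log2 fold change of -1.44 (standard error 0.23, limma adjusted p = 0.00204) that was -0.51 with normexp. The groups were apart in opposite directions, and both calls were kept without any 1 array. ITGA6, the usual partner of ITGB4, fell by 0.67, although its second probe was at -0.11 (adjusted p = 0.631), and ITGA3, ITGA5 and ITGB5 rose by 0.46, 0.66 and 0.51. Of the 6 calls only ITGB4 and ITGA8 were kept without Wnt3a array 2, while 3 were kept without untreated array 1 and 4 without untreated array 2, untreated array 3 or Wnt3a array 1. The integrin median was 0.34, or 0.30 with genes not well above background in 1 group at their bound, and -0.05 under the spike-in scaling. None of 11 laminin genes was called by limma (2 had an unadjusted p under 0.05), with a median of 0.01, and -0.39 under the spike-in scaling.

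Of 29 tested contractile and actin-binding genes 15 were called, all higher, with a median of 0.49. Under the spike-in scaling the median was 0.09 and limma called 0 of the 29, with 5 at an unadjusted p under 0.05. With control siRNA the median was 0.24 and limma also called 0, with 15 at an unadjusted p under 0.05. MYH9, the heavy chain of non-muscle myosin, read 3.97, 4.13 and 3.91 untreated and 4.50, 4.93 and 4.59 with Wnt3a, a log2 fold change of 0.67 (standard error 0.10, limma adjusted p = 0.000772). VCL, vinculin of focal adhesions, rose by 0.53 and ACTN1, an actin cross-linker, by 0.75. CNN1, the calponin of smooth muscle, had the largest rise of the list at 2.06 (adjusted p = 0.0203), with -1.77, -1.92 and -2.32 untreated and -0.53, 1.71 and -1.0 with Wnt3a. The treated arrays of CNN1 all exceed the untreated ones, but array 2 is far above the other two, and the call was lost without it (0.137), without untreated array 1 (0.0548) or without untreated array 2 (0.064). Smooth muscle actin, ACTA2, rose by 0.31 (-0.08 under the spike-in scaling), whereas TAGLN at 0.49, TPM1 at 0.35 and ACTB at 0.26 were not called. Of the 15 calls, MYH9, ACTN1 and VCL alone were kept without Wnt3a array 2, while 8 were kept without untreated array 1 and 10 without untreated array 2. A list of targets and regulators of the SRF and YAP pathways showed 2 calls among 11, the target CCN1 at 0.81 and MRTFA, a coactivator of SRF, at 0.68, and a median of -0.08, and CCN2 and ANKRD1, both classical YAP targets, were at -0.56 and -0.08 and not called. CCN1 kept its call without any 1 array and MRTFA lost it without untreated array 1 (0.0611) or Wnt3a array 2 (0.0896).

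Regulators of mesenchymal state and of other developmental pathways gave scattered calls. Of the list of epithelial-mesenchymal transition factors and cadherins 3 of 11 rose, the transcription factors TWIST1 and ZEB1 by 0.76 and 0.47 and the adhesion molecule NCAM1 by 0.71, whereas CDH1, E-cadherin, at -0.71, CDH2 at -0.09, SNAI1 at -0.13 and VIM at 0.33 were not called. TWIST1 did not rise on slide 3 (-0.05). None of the 3 calls was kept without Wnt3a array 2, 1 was kept without untreated array 1 and 2 without untreated array 2 or Wnt3a array 1, and the median was 0.23, or -0.17 under the spike-in scaling. The ligands TGFB1, TGFB2 and TGFB3 rose by 0.51, 0.93 and 0.87 and LTBP1, which stores them in the matrix, by 0.95. NOG, the secreted BMP antagonist noggin, read -2.95, -2.78 and -2.90 untreated and -1.98, -1.53 and -2.10 with Wnt3a, a log2 fold change of 1.01 (standard error 0.18, limma adjusted p = 0.00395). NOG was clearly apart between the groups and was the only 1 of these 6 calls kept without Wnt3a array 2, the sixth being ID2, a BMP target, which fell by 0.46 but not on slide 3 (0.08). With untreated array 1 or untreated array 2 left out, 2 and 3 of the 6 were kept. The list of TGF-β and BMP genes thus had 5 of 22 higher and 1 lower, with a median of 0.12, and -0.24 under the spike-in scaling, and its target genes SMAD7, SKIL and ID1 were not called, at 0.07, 0.25 and -0.16. IHH, the Hedgehog ligand of the gut and growth plate, read 1.94, 2.25 and 2.18 untreated and 3.30, 3.56 and 3.25 with Wnt3a, a log2 fold change of 1.25 (standard error 0.23, limma adjusted p = 0.00471). IHH, GLI3 and CDON were the 3 of 11 Hedgehog genes that rose, with 1 kept without untreated array 1, untreated array 2 or Wnt3a array 2 and 2 without Wnt3a array 1, while the pathway's targets PTCH1 at -0.20 and GLI1 at -0.24 were not called. Of 14 Notch genes JAG2, a ligand, rose by 0.62 and none fell, with a median of 0.13, and -0.26 under the spike-in scaling, and the targets HES1 and HEY1 were at 0.04 and 0.21. LFNG, which modifies Notch receptors, has a pair of probes that disagree, the brighter at -0.02 and the other at 1.56 (adjusted p = 0.00236), and was not called by the brighter one.

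In a list of mucosal secretory genes 8 of 12 tested fell and none rose, with a median of -0.85. Like the other lists, it was drawn up with earlier results of these data known, so that its count describes these genes and not mucosal genes at large. PSCA, a surface antigen of secretory epithelia, read 2.90, 3.37 and 2.64 untreated and 1.46, 0.32 and 1.81 with Wnt3a, a log2 fold change of -1.77 (standard error 0.30, limma adjusted p = 0.00252). LY6D, of the same protein family, fell by 1.28, the chloride transporter SLC26A9 by 1.77, the disulfide isomerase AGR2 by 1.03 and the calcium-binding protein S100P by 1.13. Every one of the 3 treated arrays of PSCA was below every untreated one, and the fall was largest on slide 2. PSCA alone of the 8 kept its call without Wnt3a array 2, while 2 calls were kept without untreated array 1, 2 without untreated array 2 and 6 without untreated array 3 or Wnt3a array 1. The mucins and trefoil peptides of the list were not called, with MUC1 at 0.20, TFF1 at 0.01, TFF2 at 0.33 and TFF3 at -0.46.

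Lipid metabolism showed 7 falls and 0 rises among 19 tested genes in the limma model, with a median of -0.43. ACACB, the acetyl-CoA carboxylase that restrains fat oxidation, fell by 0.91, CPT1A, which admits fatty acids to mitochondria, by 0.36, ACADM, a dehydrogenase of fat oxidation, by 0.58, and PLIN2, a coat protein of lipid droplets, by 0.57, with no change on slide 3 (0.00). BCO2 fell by 1.38, FA2H by 1.23 and the peroxisomal fatty acid transporter ABCD2 by 1.18. SREBF1, SREBF2 and SCD of lipid synthesis were not called, at 0.03, 0.02 and 0.12. None of the 7 calls was kept without untreated array 1, none without untreated array 2 and none without Wnt3a array 2, while without untreated array 3 or Wnt3a array 1 all 7 were. Beyond the list, PRKAR2B, a regulatory subunit of protein kinase A, read -3.03, -3.28 and -3.51 untreated and -4.65, -4.71 and -5.00 with Wnt3a, a log2 fold change of -1.51 (standard error 0.22, limma adjusted p = 0.000653). PNLIPRP3, a pancreatic lipase-related protein, read -3.51, -3.31 and -3.94 untreated and -4.72, -6.13 and -5.26 with Wnt3a, a log2 fold change of -1.78 (standard error 0.28, limma adjusted p = 0.00144). Both genes were apart between the groups, with -0.61 and -0.57 under normexp, and PNLIPRP3 reached the floor on treated array 2.

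Most secreted hepatocyte proteins were lower with Wnt3a on slides 1 and 2 and higher on slide 3. Of 21 tested secreted hepatocyte proteins A1BG alone was called, at -0.69, although the median of the list was -0.82. On slide 1 the median was -1.35, with 0 of 21 higher, on slide 2 it was -1.78, with 1 higher, and on slide 3 it was 0.46, with 19 higher. TTR, transthyretin, read 6.56, 4.91 and 3.65 untreated and 4.11, 3.12 and 4.26 with Wnt3a, a log2 fold change of -1.21 (standard error 0.72, limma adjusted p = 0.364). Its 3 untreated arrays span a wider range than its treated ones, and untreated array 3 lies below 2 of the treated arrays. Cytochrome P450 genes had medians of -0.98, -1.41 and 0.27 on the slides, and their median of -0.87 over the 3 was not accompanied by more than 3 calls among 19 genes. CYP4B1 and CYP7B1 fell by 1.98 and 0.84, and CYP1B1, an extrahepatic enzyme of the family, rose by 0.92. Without untreated array 1 or Wnt3a array 2, none of the 3 was called.

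**Figure D4:**
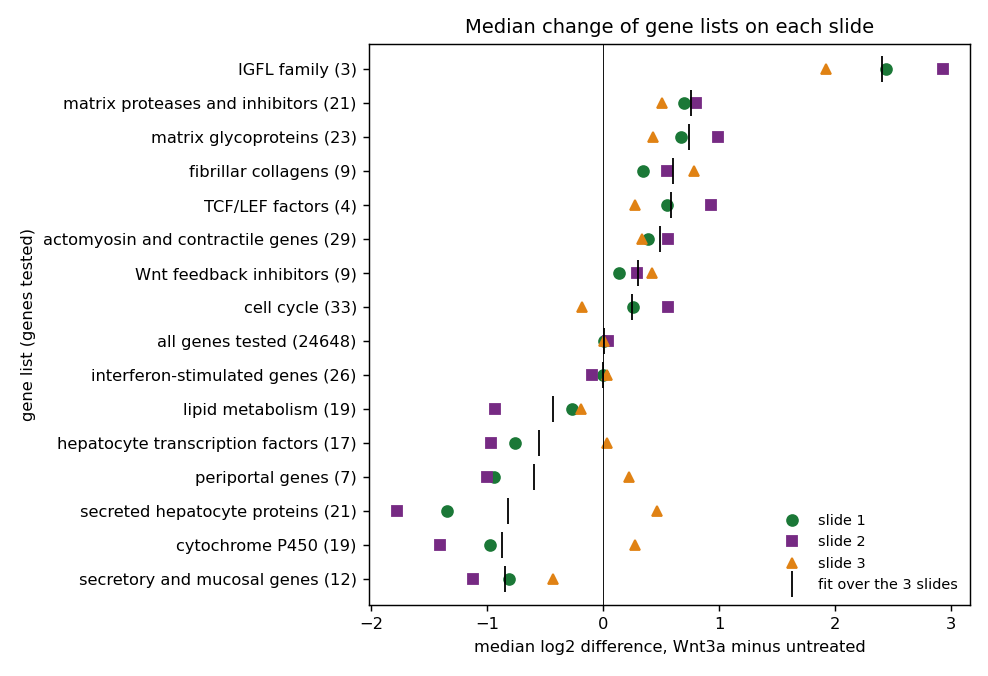
Median log2 difference, Wnt3a minus untreated, of gene lists on each slide (circles, squares and triangles) and in the fit over the 3 slides (vertical bars), with the number of tested genes in brackets. Secreted hepatocyte proteins stand at -1.35, -1.78 and 0.46 on slides 1, 2 and 3, whereas matrix proteases stand at 0.70, 0.80 and 0.51. Under the spike-in scaling the medians over the 3 slides of Wnt feedback inhibitors, at -0.03, and of cell cycle genes, at -0.14, turn negative.

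Transcription factors of hepatocytes had medians of -0.76, -0.97 and 0.03 on slides 1, 2 and 3, with 2 of 17 called. NR5A2, a nuclear receptor that drives bile acid and cholesterol genes, read -0.99, -1.49 and -1.86 untreated and -2.36, -3.53 and -2.30 with Wnt3a, a log2 fold change of -1.28 (standard error 0.25, limma adjusted p = 0.00666). This probe fell on each slide and kept its call without any 1 array, whereas a second probe of NR5A2 was at -0.31 and not called (adjusted p = 0.777). PPARA, the nuclear receptor of fat oxidation, fell by 0.55, a call lost without untreated array 1 (adjusted p = 0.156), untreated array 2 (0.142) or Wnt3a array 2 (0.308). HNF4A at -0.48 and CEBPA at -0.60 were not called. With all arrays of replicate 3 left out, the calls numbered 11 of the 17 transcription factors, 17 of the 21 secreted proteins and 14 of the 19 cytochrome P450 genes, against 6344 of all genes. Without replicate 1 limma called 0 in all 3 lists, with 7, 2 and 5 genes at an unadjusted p under 0.05, and without replicate 2 it also called 0, with 1, 1 and 3. What part the slide, the untreated arrays or the state of the cultures has in these differences between slides was not tested. In bulk RNA, fewer cells of a type and less RNA per cell cannot be told apart.

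Zonation genes of the liver lobule, which Wnt signals pattern, gave few calls. Of 8 pericentral genes tested AXIN2 and ALDH3A1 rose, the latter, an aldehyde dehydrogenase, from 3.85, 4.27 and 4.21 untreated to 4.65, 4.73 and 4.45 with Wnt3a (log2 fold change 0.50, standard error 0.09, limma adjusted p = 0.00501). Each treated array of ALDH3A1 exceeded each untreated one, and its call was kept without any 1 array. GLUL, glutamine synthetase, read 4.71, 4.73 and 4.71 untreated and 4.67, 4.37 and 4.50 with Wnt3a, which is slightly lower on each slide and not called (-0.20, adjusted p = 0.375). The pericentral median was 0.23, and -0.16 under the spike-in scaling. None of 7 periportal genes was called by limma (4 had an unadjusted p under 0.05), with medians of -0.94, -1.0 and 0.22 on the slides, and the urea cycle enzyme CPS1 was at -0.60.

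Markers of other cell types moved with the matrix genes in part. Of 8 tested fibroblast and stellate cell markers 4 rose, COL1A1, COL1A2, COL3A1 and DCN, which also belong to the matrix lists, whereas PDGFRA, LRAT and RGS5, markers outside those lists, were at -0.20, -0.30 and -0.16 and not called, nor was PDGFRB, whose signal passed the background criterion on 1 untreated array and no treated one. The mean of the marker list was -2.29, -2.26 and -2.60 untreated and -1.89, -1.99 and -1.89 with Wnt3a, and its median change was 0.27, 0.29 with PDGFRB at its bound, or -0.11 under the spike-in scaling. Without untreated array 1, untreated array 2, Wnt3a array 1 or Wnt3a array 2, 2 of the 4 calls were kept. Of 7 tested macrophage markers MRC1 fell by 1.70, ITGAM fell by 0.73 and CSF1R rose by 1.58, with list means of -1.74, -1.95 and -2.17 untreated and -2.16, -2.45 and -2.11 with Wnt3a. None of these 3 calls was kept without untreated array 1 or without Wnt3a array 2. Of 6 tested biliary markers SPP1, osteopontin, fell by 0.74 and the keratins KRT7 and KRT19 were at 0.02 and -0.02, and the call of SPP1 was lost without untreated array 1, untreated array 2 or Wnt3a array 2. The part of these markers in the matrix changes was not tested.

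Epithelial junction genes changed in both directions, with 3 of 18 higher and 3 lower. CLDN2, a pore-forming claudin, read 0.15, -0.60 and -1.13 untreated and 1.14, 0.32 and 1.27 with Wnt3a, a log2 fold change of 1.44 (standard error 0.29, limma adjusted p = 0.00899). PARD6B, a polarity protein, read 0.09, -0.24 and -0.20 untreated and -0.96, -1.42 and -0.54 with Wnt3a, a log2 fold change of -0.86 (standard error 0.16, limma adjusted p = 0.00471). These genes moved apart in opposite directions on every slide. The scaffold TJP1 rose by 0.41 and the desmosomal PKP3 by 1.17, whereas OCLN and CLDN1 of tight junctions fell by 0.99 and 1.19, although on slide 3 they were at 0.08 and 0.11 and their groups overlap. CLDN2, PARD6B and TJP1 kept their calls without any 1 array, and of the 6 calls 3 were kept without untreated array 1 or Wnt3a array 2 and 4 without untreated array 2. Keratins KRT8 and KRT18 of simple epithelia were at 0.28 and -0.11 and not called.

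Cell cycle genes were mostly higher without being called. CCNG2, a cyclin linked to growth arrest, was the only 1 of 33 tested genes to rise, by 0.49, a call lost without untreated array 2 (adjusted p = 0.111) or Wnt3a array 2 (0.123), and none fell. The medians were 0.26, 0.56 and -0.18 on slides 1, 2 and 3, with 29, 31 and 7 of the genes higher, and the median over the 3 slides was 0.25, or -0.14 under the spike-in scaling. MKI67, a marker of cycling cells, read 0.81, 0.94 and 1.35 untreated and 1.38, 1.90 and 0.71 with Wnt3a (log2 fold change 0.30, adjusted p = 0.654). Slide 3 thus goes the other way for MKI67. CCND1, often named as a Wnt target, was at 0.09 and not called. Interferon-stimulated genes gave 2 rises and 1 fall among 26, MX2 at 0.74, GBP1 at 0.62 and MX1 at -0.51, with a median of 0.00, and no call was kept without Wnt3a array 2 and 1 without untreated array 1 or untreated array 2. Inflammatory mediators gave 3 rises among 16. CXCL3, a neutrophil chemokine, read -0.27, -0.18 and -0.52 untreated and 0.54, 0.58 and 0.60 with Wnt3a, a log2 fold change of 0.90 (standard error 0.15, limma adjusted p = 0.00243). The groups of CXCL3 were apart by more than their spread, and its call was the only 1 of the 3 kept without Wnt3a array 2 or without untreated array 1. IL1R1 and F3, tissue factor, rose by 0.84 and 1.11, and CXCL8 and IL6 were at -0.09 and -0.39 and not called. Of 12 stem and progenitor genes CD44 and the RNA-binding LIN28B rose, by 0.27 and 0.55, neither kept without untreated array 2 or Wnt3a array 2 and 1 kept without untreated array 1 or untreated array 3, and SOX9 was at -0.11. The median of this list was 0.26, and -0.13 under the spike-in scaling.

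Solute transporters held 5 rises and no fall among 20 tested genes, and all 5 calls were kept whichever of the 6 arrays was left out. This list too was drawn up with earlier results of these data known, so its count and that stability describe these genes only. SLC26A2, a sulfate transporter that supplies the sulfation of matrix proteoglycans, read 2.71, 2.95 and 3.34 untreated and 4.27, 4.87 and 4.21 with Wnt3a, a log2 fold change of 1.45 (standard error 0.14, limma adjusted p = 1.47e-05). SLC1A3, a glutamate transporter, read 1.21, 1.28 and 1.41 untreated and 2.27, 2.30 and 2.05 with Wnt3a, a log2 fold change of 0.91 (standard error 0.11, limma adjusted p = 0.000155). The groups of both genes were well separated. SLC12A8, SLC7A5 and SLC38A3 rose by 1.23, 0.97 and 0.93. With control siRNA SLC7A5 was at -0.05 and not called, while the other 4 were called higher. The median of the list was 0.03, and -0.36 under the spike-in scaling, and 1 of the 5 calls was kept under that scaling.

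The same treatment was measured in other cultures transfected with control siRNA, whose arrays are not shared with the untransfected ones but sit on the same slides. There 520 genes (2.11%) were called, 269 higher and 251 lower, or 56 under the spike-in scaling, 54 higher and 2 lower. The 2 lists shared 275 genes, all in the same direction, which is 19.9% of the calls in untransfected cells and 52.9% of those with control siRNA. Of the 1381 genes called without transfection, 1293 (93.6%) had the same direction with control siRNA, against 66% of all genes. Their medians there were 0.28 for those called higher and -0.33 for those called lower, against 0.55 and -0.55 in the comparison by which they were chosen, a choice that favours larger values in it. Across these genes the 2 sets of fold changes correlated at 0.884 and across all genes at 0.57, where genes are not independent replicates. Secreted hepatocyte proteins had a median of -0.64 and cytochrome P450 genes of -0.22 with control siRNA, while IGFL2, IGFL1 and IGFL3 were at 3.51, 2.72 and 2.26, all called. RSPO3 and SLC7A5, which rose without transfection, were at 0.07 and -0.05 there and not called. In a test of the difference itself, limma called 0 of 24648 genes (0%), with 1183 at an unadjusted p under 0.05 and a lowest adjusted p of 0.621. Without all arrays of replicate 1 or of replicate 2, the control siRNA comparison called 4 and 12 genes.

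**Figure D5:**
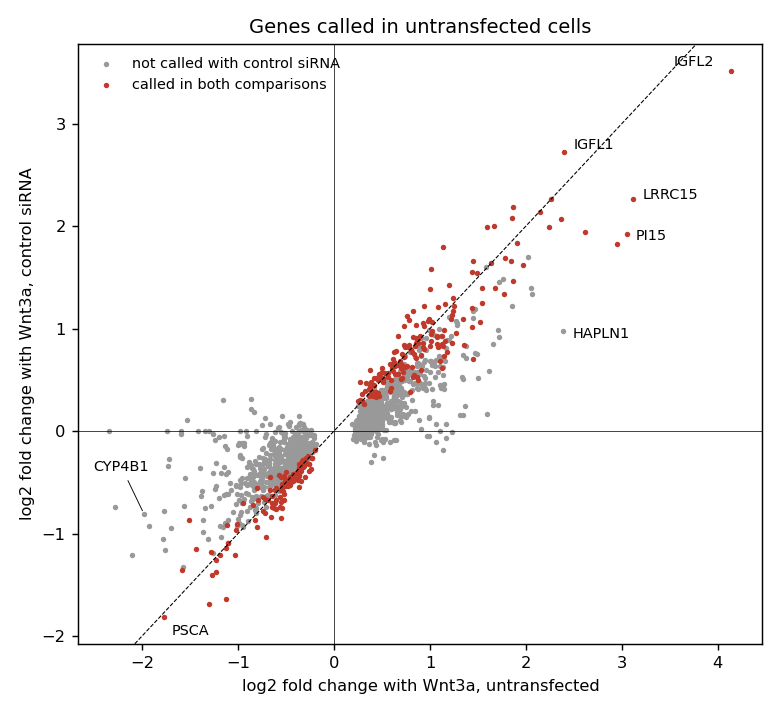
Log2 fold change with Wnt3a in untransfected cells (horizontal axis) against that with control siRNA (vertical axis) for the 1381 genes called in untransfected cells. Red points are the 275 genes called in both comparisons, grey points the others, and the dashed line marks equal change. IGFL2 stands at 4.14 and 3.51, and HAPLN1, at 2.39 and 0.98, was not called with control siRNA. Points on the horizontal zero line include genes at the floor on all 6 control siRNA arrays.

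FZD8_CRD binds Wnt proteins outside the cell, and the response to Wnt3a in its presence was measured against FZD8_CRD alone. A difference between the responses with and without it can thus come from the level with FZD8_CRD alone as well. There 2044 genes (8.29%) were called, 1074 higher and 970 lower. Of the 1381 genes called without FZD8_CRD, 1149 (83.2%) had the same direction with it, against 60% of all genes, and 28.4% were called in both, 390 of them in the same direction. The response differed from that in untransfected cells without it for 18 genes (0.073%), with 5 more positive and 13 more negative and 3128 at an unadjusted p under 0.05. Of the 5, however, 4 stayed below the background criterion on all 6 untransfected arrays without FZD8_CRD, so that their differences are taken against signal near the floor. Among the genes that rose without FZD8_CRD, PI15, a secreted peptidase inhibitor, had a log2 fold change of 3.05 without and 0.13 with it, a difference of -2.91 (standard error 0.48, limma adjusted p = 0.0259). PI15 read -5.67, -4.32 and -3.53 on the untreated arrays and -1.17, -1.94 and -1.27 with Wnt3a alone, and every treated array was far higher. SLC26A2 went from 1.45 to 0.23 and NOG from 1.01 to -0.45, with differences of -1.22 (standard error 0.20, limma adjusted p = 0.0259) and -1.45 (standard error 0.25, limma adjusted p = 0.0399). IGFL2, in contrast, was at 4.14 without and 4.58 with FZD8_CRD, a difference of 0.44 (standard error 0.72) that was not called (adjusted p = 0.922). Without all arrays of replicate 1 or of replicate 2, limma called 0 genes for this difference, with 906 and 633 at an unadjusted p under 0.05, and without those of replicate 3 it called 2989. The difference was called for 14 genes under the spike-in scaling, 12 more positive and 2 more negative. PI15 was still called there (-2.61, adjusted p = 0.0372), whereas SLC26A2 and NOG, at -0.92 and -1.15, were not (0.597 and 0.616). With the deposited values the difference for PI15 was -1.45, and none of these 3 genes was called (adjusted p of 0.499 for PI15 and 0.0513 for the others). With normexp the differences for PI15 and NOG were smaller, at -1.57 and -0.97, and called.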

How the data were processed

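RNA of the 24 arrays was read with Agilent Feature Extraction (version 10.7.3.1 in the submitters' processing notes). Per the file headers, the deposited intensity values are linear, background-subtracted and detrended, and the arrays are not normalized to each other. A further table that the authors deposited gives log2 values of 25443 probes relative to each array's 75th percentile. Set against the scanner values with each probe centred on its median, these correlated at between 0.926 and 0.992 with slopes of 0.885 to 1.019 and column medians of -0.05 to 0.019, so that scale, centring and direction are known, and they served as an alternative.

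Here the log2 intensity was taken relative to the 75th percentile, outlier spots were dropped, low signals were set to -6.13 (1.43% of the 75th percentile), and a probe was kept if all 3 arrays of some condition showed it well above background, which left 31067 of 50683 probes. Of all probes, 28174 were given a symbol through RefSeq transcripts. The probe with the highest mean stood for its gene, which gave 24648 genes, 16001 with a symbol. The model, with 1 mean per condition for the 8 conditions, was run in limma 3.58.1 (R 4.3.3, eBayes with trend), two-sided, with Benjamini-Hochberg adjustment. The model was also run on simulated data with equal spread in all conditions and no slide effect. That run cannot show how unequal spreads or differences between slides affect the calls. Python 3.11.15 and matplotlib 3.10.9 drew the figures.

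Named genes are the 12 largest rises and falls among called genes with a symbol that changed the same way on every slide and were well above background where higher, and in each list the called members (the 6 largest where more were called) or, with under 3 called, some uncalled ones. Other members named are given to describe their list. Some genes are not reported here. The samples and lists were chosen with earlier results of these data known. Alternatives were quantile normalization, the deposited values, normexp background correction of the median signals (offset 50), leaving dim probes in or asking for all 24 arrays above background, averaging a gene's probes, outliers kept, spike-in scaling, the replicate block, the 6 arrays alone, and leaving out arrays. The study's PCR, tumour and other cell line data were not used here.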

Additional observations from a re-analysis of the deposited data

Results flagged for a closer look

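For 6 named genes the response to Wnt3a differed between cells given FZD8_CRD and cells without it, in limma's test of the difference over 3 arrays per condition. The log2 difference was -4.48 for HAPLN1, -2.91 for PI15, -1.45 for NOG, -1.42 for LUM, -1.22 for SLC26A2 and -0.90 for SLC1A3, with adjusted p of 0.0259, 0.0259, 0.0399, 0.0466, 0.0259 and 0.0399. All 6 rose with Wnt3a alone. HAPLN1 was lower with Wnt3a and FZD8_CRD than with FZD8_CRD alone (-2.09, limma adjusted p = 0.0176). In that comparison LUM and NOG were at -0.39 and -0.45 and not called. Levels with FZD8_CRD alone are not given here, so the part of that baseline in the 6 differences is not shown. Under the spike-in scaling HAPLN1 (-4.09, adjusted p = 0.0372) and PI15 (-2.61, 0.0372) were called and the other 4 were not, and the 14 calls were 12 more positive and 2 more negative, against 5 and 13, where 4 of the 5 were below the background criterion on all 6 untransfected arrays without FZD8_CRD. Without replicate 1 or replicate 2 limma called 0 genes for this difference (906 and 633 at an unadjusted p under 0.05). With the deposited values HAPLN1 alone of the 6 was called (0.049), and PI15 was at -1.45. With normexp HAPLN1, PI15 and NOG were at -2.41, -1.57 and -0.97, all called, and LUM was not called (0.0655). A filter on all 24 arrays left LUM, NOG and SLC1A3 not called (0.0876, 0.0611 and 0.0611) and did not test HAPLN1 and PI15. With the mean of the probes SLC1A3 was not called (0.0749), and with no filter on dim probes LUM was not (0.0899).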

How the results depend on the processing

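Without each array in turn, the 1381 calls in untransfected cells numbered between 179 and 3189, and without each replicate number between 6 and 6344. The count at the study's thresholds ranged from 224 to 2807 when replicate numbers or arrays were left out. With control siRNA the calls ranged from 4 to 574 and for the FZD8_CRD difference from 0 to 2989. The same-numbered arrays of the 2 untransfected groups share a slide and deviated together at 0.432, 0.186 and -0.0552. These values do not settle whether same-numbered cultures were grown together. The study describes its replicates of this comparison as independent experiments. Calls with replicate number as a block numbered 2823 in untransfected cells, 1073 with control siRNA and 149 for the FZD8_CRD difference. Fitting the 6 arrays alone gave 2 calls and 372 genes at the study's thresholds, and with the block limma gave 0 calls (2504 at an unadjusted p under 0.05) and 296 genes, where few degrees of freedom remain. Without a filter on dim probes, the calls numbered 848 in untransfected cells, 290 with control siRNA, 8 for the control siRNA difference and 40 for the FZD8_CRD difference. Under the spike-in scaling they were 281 in untransfected cells (24 higher, 257 lower) and 56 with control siRNA (54 higher, 2 lower), with 14 for the FZD8_CRD difference (12 higher, 2 lower, in place of 5, 4 of them near the floor in cells without FZD8_CRD, and 13), and 1709 genes passed the study's thresholds. The median signals with normexp correction gave 721 genes at those thresholds and 11 for the FZD8_CRD difference, which the deposited values put at 5 and a filter on all 24 arrays at 3. With normexp the log2 fold change of 25 of the 125 named genes called was over 1.5 times smaller, and 22 of the 25 kept the call. Of all 125, 117 kept it. Among those that lost it were AXIN2, LTBP1, ACADM, CLDN1 and CD44, at 0.31, 0.77, -0.49, -1.08 and 0.24 (limma adjusted p of 0.0784, 0.079, 0.0577, 0.052 and 0.0504). At an adjusted p under 0.01, 289 genes were called in untransfected cells. Among named genes called in either fit, directions turned for AXIN2 (-0.03), CD44 (-0.13), PLOD2 (0.00) and RYK (-0.08) under the spike-in scaling and for LFNG (0.77) with the mean of its probes, which are at -0.02 and 1.56. ACTA2, a called gene given only to describe its list, turned under the spike-in scaling too. Genes not called with a change near 0 turned under the spike-in scaling as well, such as CTNNB1 (from 0.02 to -0.37) and LRP5 (from 0.18 to -0.21). Of the 125 named genes called, 125 kept the call with the block, 123 with quantile normalization, 108 of 121 with the deposited values, 91 with no filter on dim probes and 39 under the spike-in scaling. Without untreated array 1, untreated array 2 or Wnt3a array 2 the calls kept were 60, 75 and 47, without replicate 1, 2 or 3 they were 9, 3 and 122, and with the 6 arrays alone 2, or in limma 0 with the block. The number of arrays limits the precision. Probes not well above background on any array of a group give bounds only, and the fold changes of other dim probes depend on the processing.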
